A study of Homo sapiens with 2 samples.

Results

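The SOX genes described are SOX1, SOX2, SOX3, SOX4, SOX9, SOX10, SOX11, SOX12, SOX13 and SOX21, a list of 10 taken by their symbols from 60664 genes counted by RNA-seq. All 10 were found in the files. RNA came from wild-type, untreated HEK293T cells, an established human line derived from embryonic kidney, transformed with adenovirus DNA and later given the large T antigen of SV40. The study concerned the mapping of R-loops, and these RNA libraries form 1 group of 2 replicates with no contrast, so what follows are levels within the libraries and differences between the replicates, with no test between conditions. Replicate 2 is entered as HEK294T in its cell line and source fields and was read as HEK293T from its title. No label states separate cultures for the replicates, and their spread may therefore be technical.

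SOX proteins are transcription factors that bind and bend DNA through an HMG box related to that of the sex-determining factor SRY, and they are sorted into groups by the likeness of that box. Group B1 factors (SOX1, SOX2, SOX3) keep neural progenitors undifferentiated, and SOX2 also works beside POU5F1 in pluripotent cells. The group B2 factor SOX21 represses genes that the B1 factors activate. Group C factors (SOX4, SOX11, SOX12) act in progenitors and in differentiating neurons and mesenchyme. Group D includes SOX13, and group E includes SOX9, known for cartilage, Sertoli cells and the branching kidney duct, and SOX10, known for neural crest, glia and melanocytes.

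The libraries held 18011638 (replicate 1) and 18575058 (replicate 2) assigned counts. A zero is compatible with up to 3 counts, which is 0.167 CPM (counts scaled to a common total of assigned counts) in replicate 1 and 0.162 CPM in replicate 2. These floors, and the intervals given below, cover counting error only. The viral genes that define the line were not analysed here. Of the markers of other cells, 1 of 7 blood markers, 2 of 6 fibroblast markers and 0 of 5 endothelial markers were detected, that is, reached 1 CPM in both libraries. Their summed TPM (counts divided by exonic length, then scaled) was 3.73 and 6.22 for blood, 3.51 and 2.67 for fibroblasts and 0.136 and 0.102 for endothelium in replicates 1 and 2. The defining markers CD3D, CD3E, COL1A2, DCN, TEK and ERG had 0 counts in both libraries, and among the higher genes of these lists were COL1A1 (1.32 ± 0.00841 TPM), LUM (1.25 ± 0.358 TPM) and HBB, with 0 and 38 counts. Their part in the SOX levels was not tested. Of 10 nephron progenitor genes, 7 were detected, near the 65.9% of all protein-coding genes, with sums of 106 and 93.4 TPM. The highest were HOXD11 (46.9 ± 2.05 TPM), which is also a HOX family gene, and SIX2 (22.5 ± 1.64 TPM). MEOX1 (0.518 TPM), PAX2 (0.322 TPM) and OSR1 (0.199 TPM) were not detected, and WT1 stood at 0.526 TPM. In bulk RNA, fewer cells with a transcript and less of it per cell cannot be told apart.

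The promoters of 4 members are shown because their levels lay furthest apart: SOX12, SOX4 and SOX2 were the highest of the 10, and SOX1 had no counts. Each line gives the 250 bases before the transcript start on the plus strand of GRCh38.p14, from RefSeq, with CpG dinucleotides in capitals. The windows are chr20:325302-325551 for SOX12, chr6:21593501-21593750 for SOX4, chr3:181711675-181711924 for SOX2 and chr13:112066899-112067148 for SOX1.
SOX12: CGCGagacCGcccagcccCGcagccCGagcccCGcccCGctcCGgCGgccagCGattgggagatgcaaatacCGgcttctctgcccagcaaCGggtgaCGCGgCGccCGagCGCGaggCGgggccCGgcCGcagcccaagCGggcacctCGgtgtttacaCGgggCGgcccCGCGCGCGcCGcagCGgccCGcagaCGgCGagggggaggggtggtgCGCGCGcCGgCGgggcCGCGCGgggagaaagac
SOX4: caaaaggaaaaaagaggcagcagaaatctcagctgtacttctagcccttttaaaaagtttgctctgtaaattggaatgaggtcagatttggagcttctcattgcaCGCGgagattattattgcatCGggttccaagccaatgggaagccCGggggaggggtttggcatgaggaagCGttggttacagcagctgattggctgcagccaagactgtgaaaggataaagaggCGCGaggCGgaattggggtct
SOX2: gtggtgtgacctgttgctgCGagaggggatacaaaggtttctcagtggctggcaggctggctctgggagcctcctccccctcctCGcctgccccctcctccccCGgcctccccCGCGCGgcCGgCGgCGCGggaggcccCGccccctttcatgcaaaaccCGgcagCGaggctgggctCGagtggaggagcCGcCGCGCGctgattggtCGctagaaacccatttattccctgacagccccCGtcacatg
SOX1: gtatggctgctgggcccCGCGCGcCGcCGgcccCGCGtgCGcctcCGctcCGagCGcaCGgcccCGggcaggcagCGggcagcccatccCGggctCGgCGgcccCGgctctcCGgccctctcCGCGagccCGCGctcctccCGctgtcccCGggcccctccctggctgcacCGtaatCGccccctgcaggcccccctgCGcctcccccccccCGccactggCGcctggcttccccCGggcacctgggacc

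Among the 4 promoters shown, the order by number of CpG dinucleotides differed from the order by level. SOX12, the highest member, had 42 and SOX1, without counts, had 31, while SOX4, the member in second place, had 8 and SOX2 had 20. Of the 10 members, 7 matched a RefSeq promoter, and in all 7 the RefSeq start was the deposited start of the gene. SOX9, SOX10 and SOX11 had no match. SOX3 had 17 CpG, SOX21 had 11 and SOX13 had 8. The median of the 7 was 17, equal to that of 15301 promoters of protein-coding genes. The GC box GGGCGG, searched on both strands, occurred in 4 of the 7 and in 56.7% of all these promoters. The CCAAT sequence occurred in 5 of 7 and 34.8%, with 4 matches in SOX4, and TATAAA in 1 of 7 (SOX21) and 9.20%. The SOX-type elements AACAATG and AACAAAG occurred in 0 of 7 each, against 1.91% and 3.53% of all. The octamer ATGCAAAT, bound by POU factors and searched after the sequences had been read, lay in the SOX12 promoter alone of the 7, and in 1.61% of all. These matches describe the letters in the windows, and whether they or the CpG number bear on the levels was not tested.

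Group C led the SOX transcripts. SOX12, on the plus strand of chromosome 20 from 325552 to 330224 (GRCh38), had 1106 counts in replicate 1 and 945 in replicate 2. This was 61.4 CPM (95% exact binomial interval 57.8 to 65.1) and 50.9 CPM (47.7 to 54.2). Per length it stood at 27.1 and 21.5 TPM, a mean of 24.3 ± 3.96 (SD, n = 2), and 83.3% of 19890 protein-coding genes were lower. SOX12 was the highest member in each library, and its lower value exceeded the higher value of any other member. In mice its role overlaps with those of the other group C factors.

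SOX4, which acts in progenitors of the kidney, heart and nervous system, lies on chromosome 6 from 21593751 to 21598619. It had 589 and 394 counts, or 32.7 CPM (30.1 to 35.5) and 21.2 CPM (19.2 to 23.4). Its level was 13.9 and 8.61 TPM, with a mean of 11.2 ± 3.72 TPM, above 71.9% of protein-coding genes. With the longest coding transcript, of 5852 bases in place of the deposited 4869, the mean was 6.39 TPM. The SOX12 level was 1.96 times that of SOX4 in replicate 1 and 2.50 times in replicate 2.

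SOX11, the third factor of group C and one that acts in developing neurons, was not counted in either library (0 and 0). Its gene is a single exon of 9002 bases on chromosome 2, from 5692384 to 5701385, the longest exonic sequence of the 10. At that length a count of 0 allows up to 0.0382 TPM in replicate 1 and 0.0355 TPM in replicate 2. The SOX4 values were 363 and 243 times this floor in replicates 1 and 2, with the deposited lengths and without the counting error of SOX4. With the longest coding transcripts as lengths (5852 bases for SOX4 and 8719 for SOX11) these ratios would be lower. Of 2926 protein-coding genes with 9000 or more exonic bases, 3.49% had 0 counts in both libraries, and of all protein-coding genes 15.4% did. Within group C the levels thus ran from the highest of the 10 members to a count of 0.

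Group B1 was carried by SOX2. SOX2, on chromosome 3 from 181711925 to 181714436, had 133 and 92 counts, or 7.38 CPM (6.18 to 8.75) and 4.95 CPM (3.99 to 6.07). Its level was 6.07 and 3.90 TPM, with a mean of 4.98 ± 1.54 TPM, above 58.1% of protein-coding genes. SOX3, an X-linked gene (140502985 to 140505069, minus strand) that acts in the pituitary and the nervous system, had 18 and 14 counts. That was 0.999 and 0.754 CPM, just under the 1 CPM required for detection, and 0.990 and 0.715 TPM. SOX2 was 6.13 times as high as SOX3 in replicate 1 and 5.45 times in replicate 2.

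SOX1, a marker of neuroectoderm on chromosome 13 from 112067149 to 112071706, likewise had a count of 0 in each. This allows up to 0.0755 TPM in replicate 1 and 0.0701 TPM in replicate 2. The SOX2 values were 80.4 and 55.6 times this floor with the deposited lengths, without the counting error of SOX2. With the longest coding transcripts as lengths (2842 bases for SOX1 and 2513 for SOX2) these ratios were 50.1 and 34.7. The 3 members of group B1 therefore stood at separate levels in both libraries. SOX21, the B2 factor on the minus strand of chromosome 13 from 94709622 to 94712545, had 35 and 31 counts, or 1.94 and 1.67 CPM. Its level was 1.37 and 1.13 TPM, with a mean of 1.25 ± 0.172 TPM. SOX2 was 4.42 and 3.45 times as high as SOX21 in replicates 1 and 2.

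Groups D and E were low. SOX13, a group D factor also known as an islet cell autoantigen, lies on chromosome 1 from 204073115 to 204127743. It had 100 and 123 counts, or 5.55 and 6.62 CPM, and 1.55 and 1.76 TPM, with a mean of 1.65 ± 0.155 TPM. SOX13 has 7420 exonic bases in the deposited annotation and 3587 in its longest coding transcript, and with the second length its level was 2.34 TPM. SOX9, on chromosome 17 from 72121020 to 72126416, had 43 and 60 counts, or 2.39 and 3.23 CPM, and 1.25 and 1.62 TPM, with a mean of 1.44 ± 0.262 TPM. SOX10, on the minus strand of chromosome 22 from 37970686 to 37987422, had 1 count in replicate 1 and 0 in replicate 2. Both SOX10 counts are at or under the floor.

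**Figure D1:**
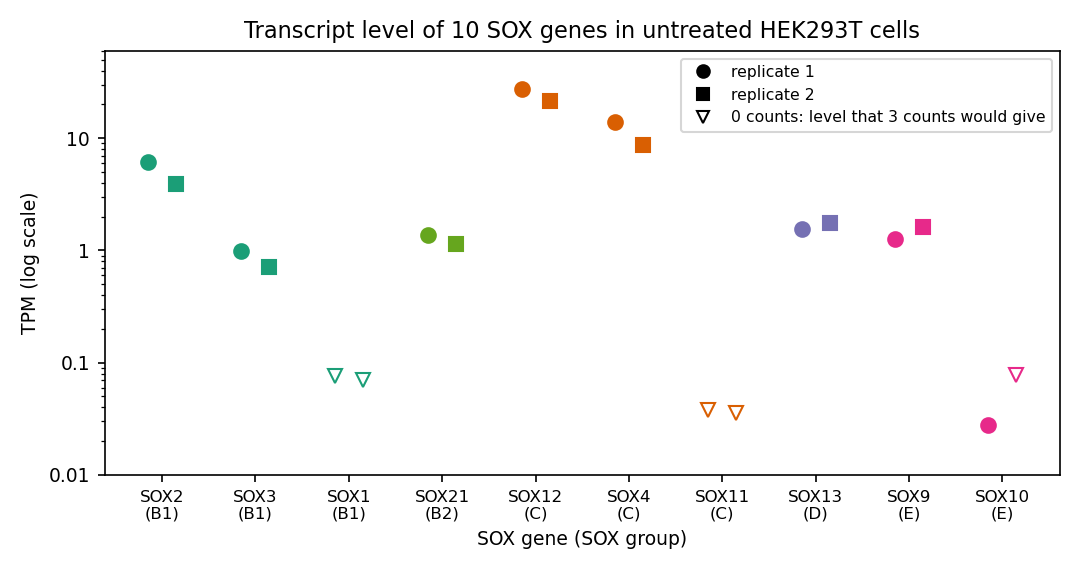
TPM (vertical, log scale) of the 10 SOX genes (horizontal, by SOX group) in replicate 1 (circles) and replicate 2 (squares), with open triangles at the level that 3 counts would give where a library had 0 counts. SOX12, SOX4 and SOX2 stand apart above, SOX13, SOX9, SOX21 and SOX3 lie together between 0.715 and 1.76 TPM, and SOX10, SOX1 and SOX11 lie at or under the floor.

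In order of mean TPM the members ran SOX12, SOX4, SOX2, SOX13, SOX9, SOX21, SOX3 and SOX10, with SOX1 and SOX11 at 0. The library values of SOX12, SOX4 and SOX2 did not overlap with each other or with any lower member. The ranges of SOX13 and SOX9 over the libraries overlapped, though SOX13 lay above SOX9 within each library. Those of SOX9 and SOX21 overlapped too, and SOX21 was the higher of this pair in replicate 1 and SOX9 in replicate 2. SOX21 lay above SOX3 in both libraries, by 1.13 TPM at the lowest against 0.990 TPM at the highest.

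Of the 10 members, 6 were detected (SOX2, SOX4, SOX9, SOX12, SOX13 and SOX21), against 65.9% of 19890 protein-coding genes. A share of 6 in 10 is near that background. The median level over all 10 was 1.34 TPM (1.31 and 1.38 TPM in replicates 1 and 2), and that of the whole protein-coding set was 2.88 TPM. Together the 10 took 112 CPM in replicate 1 and 89.3 CPM in replicate 2. Group C held 77.6% ± 1.21 of their summed TPM, group B1 12.6% ± 1.25, SOX13 3.72% ± 1.09, group E 3.30% ± 1.19 and SOX21 2.75% ± 0.175 (SD, n = 2). The summed TPM was 41.0 and 30.1 for group C and 7.06 and 4.61 for group B1 in replicates 1 and 2.

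The rest of the family was measured in the same libraries, with SRY left out. Of 9 other SOX genes, 5 were detected (55.6%, against 65.9% of all protein-coding genes), with a median of 1.20 TPM. SOX15, the lone member of group G, had 63 and 87 counts and the highest level among them, 5.63 ± 0.984 TPM, next to SOX2 at 4.98 ± 1.54 TPM. SOX18, a group F factor of blood and lymph vessels, had 81 and 50 counts and 3.92 ± 1.51 TPM. SOX8, the third group E factor, had 112 and 96 counts and 2.58 ± 0.415 TPM, and so stood above SOX9 in both libraries (2.87 and 2.29 TPM against 1.25 and 1.62). SOX7, which shares 39.4% of its exonic bases with PINX1 and is uncertain, had 1.48 ± 0.0775 TPM.

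The group D relatives of SOX13 were SOX6, with 221 and 215 counts and 1.20 ± 0.0862 TPM, and SOX5, with 25 and 13 counts and 0.192 ± 0.0948 TPM. SOX6 had more counts than SOX13 but less per length, since its exons cover 20093 bases. SOX30 had 3 and 4 counts, and SOX14 and SOX17 had 0 in both libraries. Over all 19 SOX genes, group C held 58.2% ± 2.71 of the summed TPM, so the group that led the 10 members also led the family.

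Beside other families of transcription factors, the SOX median lay close to that of the forkhead genes and below that of the HOX genes. The 4 TCF and LEF genes, whose proteins carry a related HMG box and answer to Wnt signals, were all detected, at LEF1 3.69 ± 0.0768, TCF7L2 2.24 ± 0.685, TCF7L1 2.14 ± 0.0419 and TCF7 1.19 ± 0.163 TPM. The SOX members had a median of 1.34 TPM, against 2.19 TPM for these 4, 1.41 TPM for 50 forkhead genes and 12.3 TPM for 39 HOX genes. Of the forkhead genes 28 were detected (56%) and of the HOX genes 36 (92.3%), against 65.9% of all protein-coding genes. These medians are descriptions, and no difference between the families was tested.

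**Figure D2:**
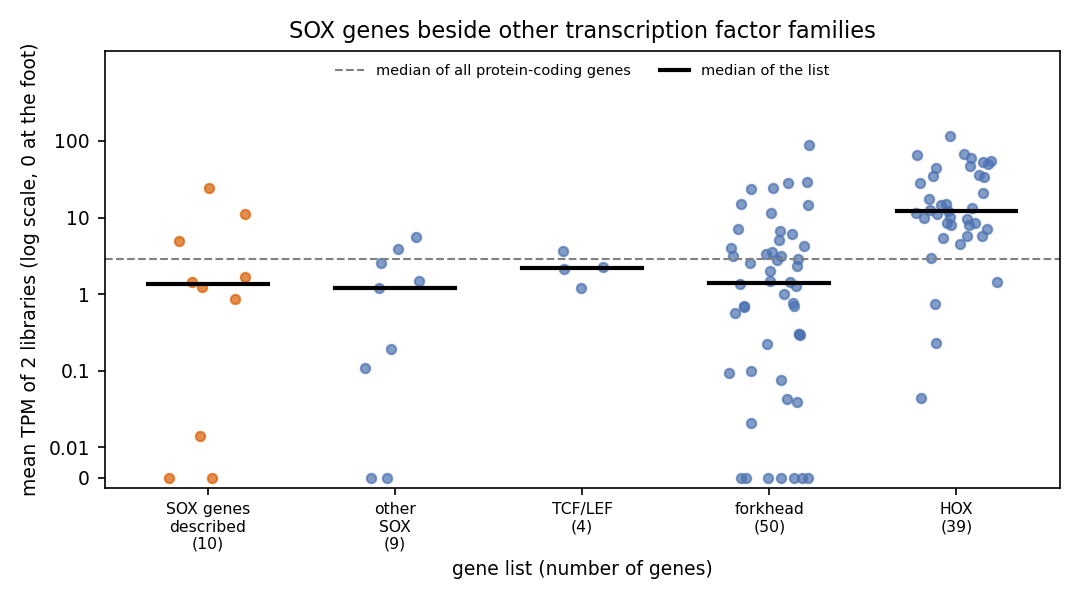
Mean TPM over the libraries (vertical, log scale, 0 at the foot) of each gene in 5 families (horizontal), with black bars at the medians and a dashed line at the median of all protein-coding genes. The SOX genes described spread from 0 to 24.3 TPM around a median of 1.34 TPM, and the HOX genes lie higher, around 12.3 TPM.

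Several noncoding transcripts are annotated across SOX genes, and their levels stood in no fixed order to those of their partners. SOX21-AS1, on the strand opposite to SOX21 and spanning it, had 87 and 96 counts and 2.08 ± 0.0357 TPM. Its level was 1.50 times that of SOX21 in replicate 1 and 1.87 times in replicate 2, and the pair share no exonic bases. SOX2-OT, which encloses SOX2 on the same strand, had 19 and 18 counts and 0.0647 ± 0.00586 TPM over 31637 exonic bases. SOX1-OT, which encloses SOX1, a gene without counts here, had 14 counts in each library and 0.455 ± 0.0238 TPM. SOX9-AS1 had 9 and 23 counts. SOX5-AS1, annotated in the SOX5 locus, had 0 in both.

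Overlap and shared sequence touched the members little. SOX4 shared 3.45% of its exonic bases with another gene, SOX10 2.18% with POLR2F, SOX11 0.822% and the other 7 members none. Of all stretches of 50 bases in the members' transcripts, at most 2.09% (SOX4) also occurred in a transcript of another gene. Stretches were shared within the family between SOX1, SOX2 and SOX21, and made up 1.43%, 2.03% and 0.403% of their stretches. The SOX2 share also includes stretches found in a gene outside the family.

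Most of the members are intronless. A single exon makes up 7 of the 10 in the deposited annotation (SOX1, SOX2, SOX3, SOX4, SOX11, SOX12 and SOX21), against 5.52% of protein-coding genes. For these, reads from spliced RNA, unspliced RNA and residual DNA cannot be told apart by exon. SOX1 and SOX11 belong to this set and had 0 counts. Transcript GC content ran from 47.7% in SOX11 to 63.5% in SOX10, with 62.0% in SOX12, and the median of protein-coding genes was 49.5%.

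Between the replicates, the 3 highest members were higher in replicate 1. SOX4 had 32.7 CPM in replicate 1 and 21.2 CPM in replicate 2, a log2 ratio of replicate 1 over replicate 2 of 0.59 (95% counting interval 0.41 to 0.78) after TMM scaling. SOX2 had 7.38 and 4.95 CPM, a log2 ratio of 0.54 (0.15 to 0.94). SOX12 had 61.4 and 50.9 CPM, a log2 ratio of 0.24 (0.11 to 0.37). These 3 intervals lie above 0 for counting error alone, and with 1 library on each side there is no test.

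SOX13 (log2 ratio -0.28, interval -0.68 to 0.11) and SOX9 (-0.45, interval -1.07 to 0.12) were lower in replicate 1, with intervals that span 0. SOX21 (0.18, interval -0.55 to 0.93) and SOX3 (0.33, interval -0.71 to 1.50) were too thinly counted to place. Among the 5 members that averaged 50 counts or more, 0 differed by 1 log2 or more, against 2.06% of the 14704 genes at that depth. Of the 5, SOX2 and SOX4 were 0.5 log2 or more higher in replicate 1, as were 8.84% of those genes. Over all genes at that depth, 303 passed 1 log2, of which 282 were higher and 21 lower in replicate 1. The common coefficient of variation between the libraries was 15.6%, from edgeR.

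All 5 single-exon members with counts in both libraries were higher in replicate 1, and both members with several exons, SOX9 and SOX13, were lower, a split noticed after the values were seen. It did not extend to the other SOX genes with counts, which all have several exons. SOX5 (log2 ratio 0.86), SOX18 (0.69), SOX8 (0.23), SOX6 (0.05) and SOX7 (0.01) were higher in replicate 1. SOX15 (-0.44) and SOX30 (-0.25) were lower. Over all protein-coding genes that averaged at least 50 counts, 260 single-exon genes had a median log2 ratio of 0.05 and 11910 genes with several exons one of 0.01. After centring on transcript GC content the log2 ratio was 0.63 for SOX4, 0.57 for SOX2 and 0.35 for SOX12 (0.59, 0.54 and 0.24 before it). The part of exon number and GC content in the split was not tested.

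**Figure D3:**
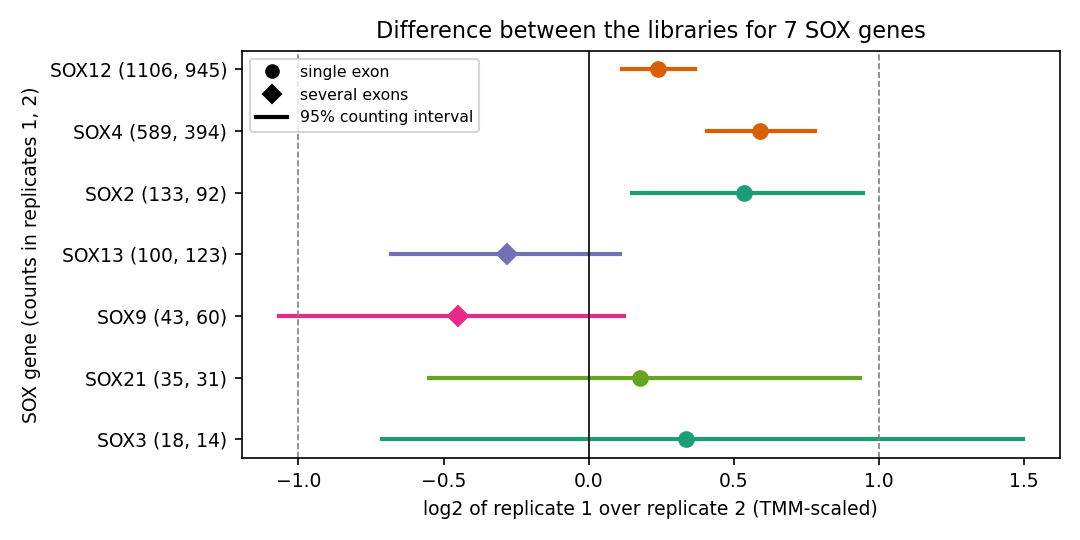
Log2 ratio of replicate 1 over replicate 2 (horizontal) for the 7 SOX genes with counts in both libraries (vertical, with their counts), with lines for 95% counting intervals and dashed lines at 1 log2 in each direction. Single-exon genes (circles) lie right of 0 and genes with several exons (diamonds) left of it, and no point reaches 1 log2.

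Factors that modify, carry or degrade SOX proteins were all present. All 16 genes of this list were detected, against 65.9% of all protein-coding genes, with a median of 18.9 TPM. UBE2S, a ubiquitin-conjugating enzyme, had 317 ± 7.43 TPM. The ubiquitin ligases WWP2, which targets SOX2, and FBXW7, which targets SOX9, were lowest, at 2.49 ± 0.165 and 2.48 ± 0.272 TPM. The SOX members' median of 1.34 TPM thus stood beside a list whose lowest gene had 2.48 TPM.

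Partners of SOX2 were present in part. Of 10 POU and pluripotency genes, 5 were detected, against 65.9% of all protein-coding genes, with a median of 1.04 TPM. LIN28B, an RNA-binding protein of embryonic cells, had 9.17 ± 0.402 TPM and POU3F2, a neural partner of SOX2, 5.30 ± 0.342 TPM. LIN28A, NANOG and POU3F4 had 0 counts in both libraries. POU5F1, named outside the rule after its values were seen because it is the partner of SOX2 in pluripotent cells, had 23 and 9 counts and was not detected.

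Genes of neural progenitors, where the B1 factors act, were detected in 7 of 10 cases, near the 65.9% of all protein-coding genes. Their median was 1.51 TPM, against 2.88 TPM for all protein-coding genes. HES1, a Notch target, had 21.2 ± 1.22 TPM and MSI1, an RNA-binding protein, 2.92 ± 0.279 TPM, while PROM1 had 0 counts. Of 4 genes known as targets of group C factors, TEAD2, which is not a neuronal gene, had 11.1 ± 0.573 TPM. Of the neuronal ones, TUBB3 had 4.36 ± 0.586 TPM and MAP2 0.144 ± 0.0255 TPM, and DCX had 0 counts. High SOX12 and SOX4 thus stood beside neuronal genes that ranged from 0 to 4.36 TPM.

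Known targets of the group E factors were mostly low, with exceptions. Of 8 cartilage genes of SOX9, 5 were detected (62.5%, near the 65.9% of all protein-coding genes), at a median of 0.643 TPM. COL2A1, the main cartilage collagen, had 297 and 326 counts and 5.16 ± 0.0693 TPM, and COL9A2 1.70 ± 0.282 TPM, while COL9A1 had 2 and 1 counts and HAPLN1 had 0. Of 4 Sertoli cell genes, AMH, the anti-Müllerian hormone, had 1278 and 866 counts and 46.1 ± 14.9 TPM. FGF9 had 1.09 ± 0.137 TPM, PTGDS 7 and 9 counts, and DHH 0 and 2 counts. AMH thus had a higher level than any of the 10 SOX members.

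Of 10 glial and melanocyte genes of SOX10, 4 were detected, against 65.9% of all protein-coding genes, at a median of 0.160 TPM. FOXD3, a neural crest factor that acts beside SOX10, had 14.8 ± 0.929 TPM and MITF, the melanocyte regulator, 1.13 ± 0.288 TPM. S100B and TYR had 0 counts in both libraries, as did GJB1. The lists of targets are known from other tissues, and whether any SOX protein acts on them in these cells was not tested.

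**Figure D4:**
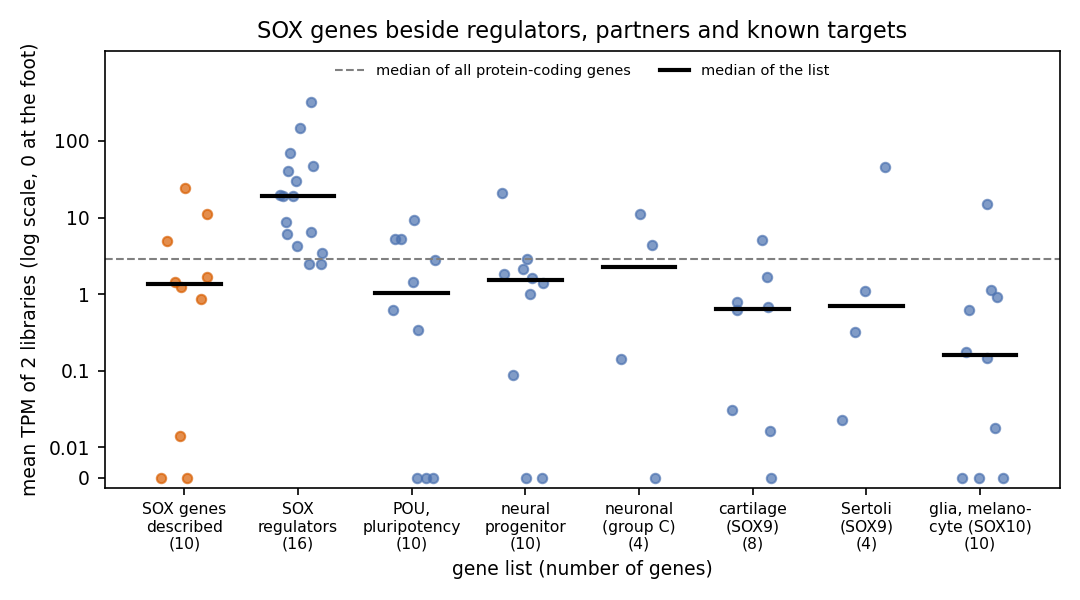
Mean TPM over the libraries (vertical, log scale, 0 at the foot) of the 10 SOX genes and of 7 lists of their regulators, partners and known targets (horizontal), with black bars at the medians and a dashed line at the median of all protein-coding genes. The regulators lie highest, at a median of 18.9 TPM, and the glial and melanocyte genes of SOX10 lowest, at 0.160 TPM.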

How the data were processed

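Oligo(dT)-primed cDNA from total RNA was sonicated and made into libraries with a single-strand kit, per the labels' protocols, which favours polyadenylated RNA. The deposited values are raw counts per Ensembl gene, not normalised by the authors, as their whole-number values show. The submitters' processing notes list featureCounts 2.0.3, Trim Galore 0.6.7, bcl2fastq 2.17 and GRCh38, while the aligner, annotation release and strand setting were not given in the sources used. Of 60664 IDs, 60463 matched a symbol.

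CPM and TPM were computed from the counts, their totals and the deposited merged exon lengths. Ratios were TMM-scaled (factors 1.01 and 0.989), with a prior count of 2, in edgeR 4.0.16 (R 4.3.3). DESeq2 1.42.0 size factors (1 and 1) were an alternative. Overlaps came from bedtools 2.31.1, and gene types, transcript lengths and GC content from GENCODE 29. The log2 ratio step was tested on simulated counts and the promoter search on made-up sequences, and the other steps were not tested this way. Uncertain genes share 25% or more of their exonic bases with another gene.

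The members, lists and tests were chosen with earlier results of these data known. Named genes were the members, the other SOX genes, transcripts named for SOX loci and the 2 highest and 2 lowest genes of each list, with lists of 4 in full and ties taken by symbol. Some genes that this rule takes are not reported here. Likeness of pattern was not scored, since 2 libraries of 1 group give none.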

Additional observations from a re-analysis of the deposited data

How the results depend on the processing

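Of 10 SOX genes, 6 or 7 were detected under each of 7 alternatives, SOX3 being added at 0.5 CPM or at 10 counts, and 6 without either replicate. The median level of 1.34 TPM became 0.941 TPM with the longest coding transcript as length (2.82 TPM for all protein-coding genes) and 2.07 TPM over protein-coding genes alone (4.42 TPM), and without each replicate ranged from 1.31 to 1.38 TPM. In all 5 alternatives for the levels the order SOX12, SOX4, SOX2, SOX13 held, while SOX9 and SOX21 changed places without replicate 2. No SOX gene with a mean count of 50 or more passed 1 log2 between the replicates under any scaling or filter. Over all genes the 303 past 1 log2 became 186 after centring on GC content, 776 at a mean count of 10, 156 at 200 and 3429 with no filter; the last 3 change which genes are tested, and the cause of the first was not tested. SOX10, with 1 and 0 counts, moved to 1.59 log2 with a prior count of 0.5. Depth limits SOX3, SOX10 and SOX21, and counts of 0 are read only against the floor. No paired analysis was possible because the labels give 1 group.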
